A study of Rattus norvegicus with 6 samples.

Results

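Prostaglandins are made from arachidonic acid in 3 steps, and the genes described here encode the enzymes of each step together with the enzyme that begins prostaglandin breakdown. They are 10 of the 22601 genes in the deposited table, each found as 1 row by its symbol, and all 10 identifiers are in RefSeq's gene table for the rat. Pla2g4a encodes the cytosolic phospholipase A2 that frees arachidonate from membranes. Ptgs1 and Ptgs2 encode the cyclooxygenases, which turn arachidonate into the unstable intermediate prostaglandin H2. Hpgds, Ptgds, Ptges, Ptges2, Ptges3 and Tbxas1 encode terminal synthases that act on that intermediate, and Hpgd encodes the dehydrogenase that inactivates the products. Ptgs1 is known as the constitutive isoform and Ptgs2 as the one induced by growth factors, cytokines and inflammatory stimuli. Prostaglandin D2 is known as the main prostaglandin of mast cells, which make it through the hematopoietic synthase Hpgds.

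The study sequenced mRNA in 6 libraries of RBL-2H3, a wild-type rat basophilic leukemia line used as a model of mast cells. The series asked how an agonist of PPARγ, a ligand-activated nuclear receptor, changes expression in this line. Of these, 3 are of cells given the agonist, labelled PIO, at 10 µM for 6 h, and the other 3 are of control cells without it. No vehicle or time is recorded for the control cells, and an effect of either cannot be told apart from that of PIO. All libraries come from 1 line, and the labels do not say whether replicates were separate cultures, so the spread between libraries may be technical.

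Values are FPKM as the authors deposited them, fragments divided by gene length and by the size of the library, so levels of different genes can be compared per length. The values resolved into whole reads, with library totals of 14048202 to 14322720 reads with PIO and 14105533 to 15084729 reads in control. All 11 mast cell and basophil markers looked up averaged at least 1 FPKM, with summed levels of 4920 to 5070 FPKM with PIO and 4880 to 5100 FPKM in control. Of 6 platelet and megakaryocyte markers, 3 (Pf4, Ppbp and Itga2b) did so too, with sums of 2850 to 3010 FPKM with PIO and 2670 to 2850 FPKM in control, and Gp1bb was listed at 0. Macrophage, T cell and B cell markers summed to at most 2.09 FPKM in any library. Endothelial markers summed to 75.5 to 77.1 FPKM with PIO and 72.7 to 76.0 FPKM in control, and fibroblast markers to 4.69 to 4.99 FPKM with PIO and 5.12 to 5.61 FPKM in control. The part of these other markers in the results on prostaglandin genes was not tested. In bulk samples like these, fewer cells of a type and less RNA per cell cannot be told apart. Control replicate 3 had the lowest mean correlation with the other libraries (Pearson 0.993, against 0.9939 to 0.9948 for the rest, across genes), and values without it are given for several results.

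The pathway was chosen by the difference of Ptgs1 between PIO and control, since Ptgs1 stood among the genes with the smallest p values in an earlier look at these data. Differences between PIO and control of the 10 genes are therefore given as a description, with no test of their own. Log2 fold changes and their standard errors (SE) come from a limma fit across all 10410 genes that averaged at least 0.5 FPKM, on log2(FPKM + 0.5), a scale that understates the change of low genes. Of the 10 genes, 7 reached that minimum. Tbxas1, at a mean of 1.69 FPKM, was the lowest of them, and Hpgd, at 0.195 FPKM, lay below it. Ptgds and Ptges were listed at 0 in all 6 libraries.

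With PIO the 2 cyclooxygenases differed from control in opposite directions, so their promoter sequences are set side by side here. They are the 250 bases before the annotated start in RefSeq (rat, build GRCr8), given 5′ to 3′ on the gene's strand. Ptgs1 lies at chr3:39981169-39981418 on the plus strand and Ptgs2 at chr13:64713813-64714062 on the plus strand. Capitals mark every match to the short motifs searched on both strands, which are listed after the sequences.
Ptgs1: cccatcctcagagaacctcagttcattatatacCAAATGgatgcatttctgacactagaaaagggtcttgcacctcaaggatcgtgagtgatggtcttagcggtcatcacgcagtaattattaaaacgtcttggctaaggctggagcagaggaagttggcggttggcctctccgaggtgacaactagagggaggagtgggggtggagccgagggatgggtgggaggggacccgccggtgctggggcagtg
Ptgs2: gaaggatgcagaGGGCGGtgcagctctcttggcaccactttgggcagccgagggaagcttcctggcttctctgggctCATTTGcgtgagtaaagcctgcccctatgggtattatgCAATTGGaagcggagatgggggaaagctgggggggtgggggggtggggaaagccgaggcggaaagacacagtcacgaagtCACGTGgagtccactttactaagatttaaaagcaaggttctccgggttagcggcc
The motifs were the nuclear receptor half-site AGGTCA and its direct repeat spaced by 1 base (AGGTCANAGGTCA), the TATA box TATAAA, the CAAT box CCAAT, the GC box GGGCGG, the core TGACG of cAMP response elements, the E-box CANNTG, and GATA flanked by A or T before it and A or G after it. The Ptgs1 window held 1 match, an E-box 217 to 212 bases before the start. The Ptgs2 window held 3 E-boxes, 1 GC box and 1 CAAT box, the last overlapping an E-box. Neither window held the half-site AGGTCA, which 14.1% of the 33469 promoters in the table hold, or its direct repeat, which 0.0508% hold. Only exact letters within these 250 bases were searched, so a missing match does not show that a gene lacks a site. A match is a description of letters, not of a site in use, and E-boxes stood in 65.5% of all promoters, GC boxes in 30.5% and CAAT boxes in 34.0%. TATAAA stood in 12.9%, TGACG in 18.2% and the GATA motif in 27.0% of all promoters, and none of these stood in either window. The Ptgs1 window was 54.4% G and C with 9 CpG dinucleotides, the Ptgs2 window 57.2% with 10, and the median promoter 51.2% with 5.

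Ptgs1 was higher with PIO in every library. It stood at 33.5, 33.0 and 32.3 FPKM in PIO replicates 1 to 3, against 25.2, 27.2 and 25.2 FPKM in control replicates 1 to 3. The groups did not overlap, and the lowest PIO value lay well clear of the highest control value. The mean was 33.0 ± 0.574 FPKM with PIO and 25.9 ± 1.13 FPKM in control (SD, n = 3 each), a difference of 27.3% relative to control. These levels rest on 1329, 1336 and 1287 recovered reads with PIO and 1074, 1083 and 1054 in control, for a counting error of about 2.89% per library. The log2 fold change was 0.34 (SE 0.04), and 1.29% of all genes tested had a higher one.

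Ptgs2 was lower with PIO, and its libraries were more spread. It stood at 41.0, 32.1 and 31.5 FPKM in PIO replicates 1 to 3, against 42.8, 45.9 and 51.0 FPKM in control replicates 1 to 3. The groups did not overlap, but PIO replicate 1 lay close to control replicate 1, while the other PIO libraries lay far below every control library. The mean was 34.9 ± 5.32 FPKM with PIO and 46.6 ± 4.17 FPKM in control (SD, n = 3 each), a difference of -25.2% relative to control. Recovered reads were 1045, 834 and 805 with PIO and 1171, 1176 and 1369 in control, a counting error of about 3.06% per library, so the spread within each group exceeds counting error. The log2 fold change was -0.42 (SE 0.10), and 0.70% of all genes tested had a lower one. It was -0.54 without PIO replicate 1 and -0.35 without control replicate 3.

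The sum of Ptgs1 and Ptgs2 overlapped between the groups, while the balance between the isoforms did not. The separate balance is no further result, since neither gene overlapped between groups and they differed in opposite directions. Their summed level was 74.5, 65.1 and 63.8 FPKM in PIO replicates 1 to 3, against 68.0, 73.1 and 76.3 FPKM in control replicates 1 to 3. The sums of the groups overlapped, at 67.8 ± 5.81 FPKM with PIO and 72.5 ± 4.19 FPKM in control (SD, n = 3 each). Ptgs1 held 45.0%, 50.7% and 50.7% of that sum in PIO replicates 1 to 3, against 37.1%, 37.2% and 33.1% in control replicates 1 to 3. Every PIO share lay above every control share, and the mean share was 48.8 ± 3.31% with PIO and 35.8 ± 2.33% in control (SD, n = 3 each). Per length, Ptgs2 was the more abundant isoform in all 3 control libraries and in PIO replicate 1, whereas in PIO replicates 2 and 3 the isoforms stood near a ratio of 1. The ratio of Ptgs1 to Ptgs2 FPKM was 0.817, 1.03 and 1.03 in PIO replicates 1 to 3 and 0.589, 0.592 and 0.495 in control replicates 1 to 3. On the log2(FPKM + 0.5) scale Ptgs1 minus Ptgs2 was -0.07 ± 0.189 with PIO and -0.83 ± 0.146 in control (SD, n = 3 each), and the PIO value turned to 0.04 without PIO replicate 1. The control value was -0.75 without control replicate 3. In recovered reads, not divided by length, the ratio of Ptgs1 to Ptgs2 was 1.27, 1.60 and 1.60 in PIO replicates 1 to 3 and 0.917, 0.921 and 0.770 in control replicates 1 to 3. The order of the isoforms in PIO replicate 1 therefore turns with the scale, while in control Ptgs2 was ahead on both scales. The level of Ptgs2 is per 1815 bases, the length recovered from its FPKM, which is a whole number of codons (605). That of Ptgs1 is per 2825 bases, which is not. The length of Hpgds, 1845 bases, is a whole number of codons (615) too, so this alone does not show what was counted. Which parts of each transcript were counted was not tested, so the ratio between isoforms depends on the gene models, whereas gene length cancels in the fold between groups.

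**Figure D1:**
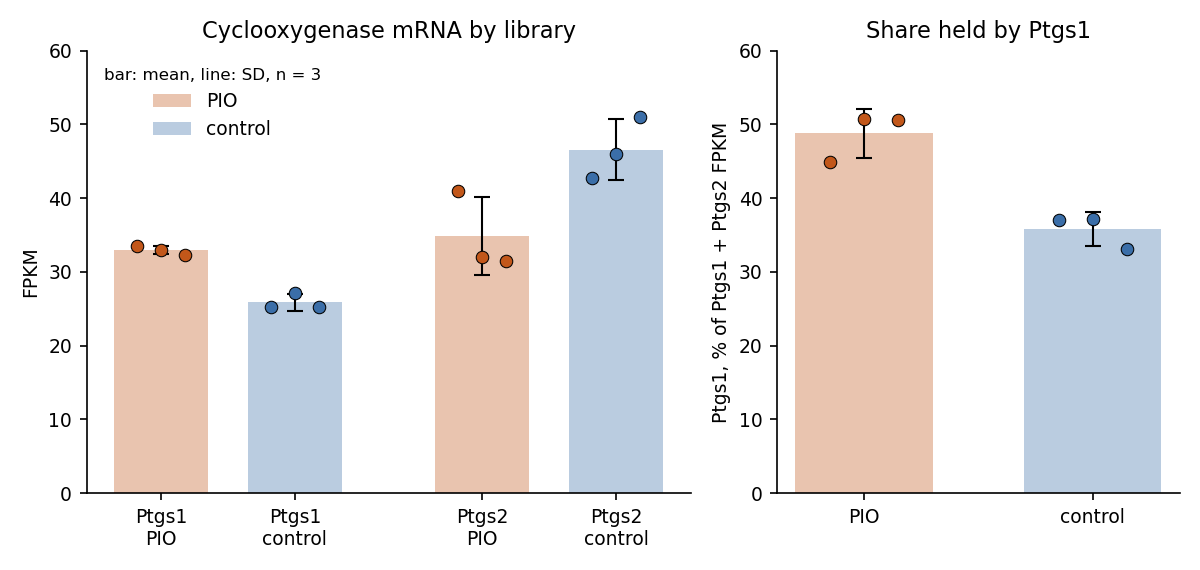
Left, FPKM of Ptgs1 and Ptgs2 in each library (points), with group means (bars) and SD (lines, n = 3) for PIO and control. Right, the share of the summed Ptgs1 and Ptgs2 FPKM held by Ptgs1, at 45.0% to 50.7% in the PIO libraries and 33.1% to 37.2% in the control libraries.

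Pla2g4a, which supplies the substrate, was abundant and its groups overlapped. It stood at 74.2, 69.9 and 77.4 FPKM in PIO replicates 1 to 3, against 71.2, 77.8 and 83.8 FPKM in control replicates 1 to 3. The mean was 73.9 ± 3.77 FPKM with PIO and 77.6 ± 6.29 FPKM in control (SD, n = 3 each), a log2 fold change of -0.07 (SE 0.06). Control replicate 3 was the highest library for Pla2g4a, as it was for Ptgs2. Without it the log2 fold change of Pla2g4a was -0.01. Per length, Pla2g4a mRNA was above that of either cyclooxygenase in each of the 6 libraries, at 1.64 to 2.46 times Ptgs2.

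The terminal synthases kept 1 order in all 6 libraries, which was Ptges3, Hpgds, Ptges2 and then Tbxas1, with Ptgds and Ptges listed at 0. No library of one gene in that order overlapped any library of the next. Ptges3, also known as the Hsp90 co-chaperone p23 and as a cytosolic prostaglandin E synthase, led at 232, 238 and 213 FPKM in PIO replicates 1 to 3, against 247, 247 and 236 FPKM in control replicates 1 to 3. The groups overlapped through PIO replicate 2, and PIO replicate 3 was the lowest library. The mean was 228 ± 13.2 FPKM with PIO and 243 ± 6.28 FPKM in control (SD, n = 3 each), a log2 fold change of -0.10 (SE 0.05). It held 55.2% to 57.6% of the summed synthase FPKM with PIO and 56.7% to 57.8% in control. The mRNA level does not separate its co-chaperone role, known in all cells, from prostaglandin E2 synthesis. The related genes Ptges3l and Ptges3l1 stood at 1.81 to 3.40 FPKM in the 6 libraries, and whether reads were shared between these copies and Ptges3 was not tested.

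Hpgds, the glutathione-dependent prostaglandin D synthase of mast cells and other blood cells, came next. It stood at 159, 153 and 150 FPKM in PIO replicates 1 to 3, against 159, 163 and 160 FPKM in control replicates 1 to 3. All 3 PIO values lay below all 3 control values, but PIO replicate 1 and control replicate 1 differed by less than the counting error of about 1.55%. The mean was 154 ± 4.19 FPKM with PIO and 161 ± 1.97 FPKM in control (SD, n = 3 each), a difference of -4.12% and a log2 fold change of -0.06 (SE 0.03). Of the genes detected, 96.7% were lower than Hpgds, and Ptges3, the synthase above it, was 1.42 to 1.56 times as abundant. Hpgds was 7.37 to 8.46 times as abundant as Ptges2. Set against the summed cyclooxygenases, Hpgds was 2.13, 2.35 and 2.36 times as abundant in PIO replicates 1 to 3 and 2.34, 2.23 and 2.09 times in control replicates 1 to 3, and these ratios overlapped.

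Ptges2 encodes a membrane-associated prostaglandin E synthase, and its groups overlapped. It stood at 19.1, 20.6 and 20.4 FPKM in PIO replicates 1 to 3, against 19.1, 20.7 and 18.9 FPKM in control replicates 1 to 3. The mean was 20.1 ± 0.812 FPKM with PIO and 19.6 ± 0.974 FPKM in control (SD, n = 3 each), a log2 fold change of 0.04 (SE 0.05), or 0.01 without control replicate 3. Of the cyclooxygenases and tested synthases it was the one with the smallest difference. Ptges, the inducible microsomal prostaglandin E synthase that is often induced together with Ptgs2, was listed at 0 in each library although Ptgs2 was abundant. Ptgds, the lipocalin-type prostaglandin D synthase of brain and other tissues, was also listed at 0 in each library. A count of 0 allows up to 3 reads per library, and that floor covers counting error only. A listing at 0 in this table may also mean that reads were not assigned, because Polr2h, which encodes an RNA polymerase subunit that every cell uses, is at 0 in all 6 libraries too.

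Tbxas1, which encodes thromboxane A synthase, a gene known for its high level in platelets and macrophages, was low. It stood at 1.59, 1.84 and 1.94 FPKM in PIO replicates 1 to 3, against 1.62, 1.49 and 1.63 FPKM in control replicates 1 to 3. The groups overlapped through PIO replicate 1, and the other PIO libraries were the highest. The mean was 1.79 ± 0.179 FPKM with PIO and 1.58 ± 0.0769 FPKM in control (SD, n = 3 each), a log2 fold change of 0.14 (SE 0.10) against a counting error of 9.41% per library. Of the genes detected, 39.6% were lower than Tbxas1.

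Hpgd, the dehydrogenase that begins the breakdown of prostaglandins, was close to the limit of detection. It had 6, 6 and 7 recovered reads in PIO replicates 1 to 3, against 2, 6 and 1 in control replicates 1 to 3. Summed over libraries this made 19 reads with PIO and 9 in control. The groups overlapped in FPKM, through control replicate 2, and with so few reads a difference was not tested. Its mean of 0.267 ± 0.0256 FPKM with PIO and 0.124 ± 0.113 FPKM in control (SD, n = 3 each) lay below the minimum for the fit. The promoter table held 8 of the 10 genes, all but Hpgds and Ptges2, and of those 8 the half-site AGGTCA stood in the windows of Pla2g4a and Ptgds, and its direct repeat in none.

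**Figure D2:**
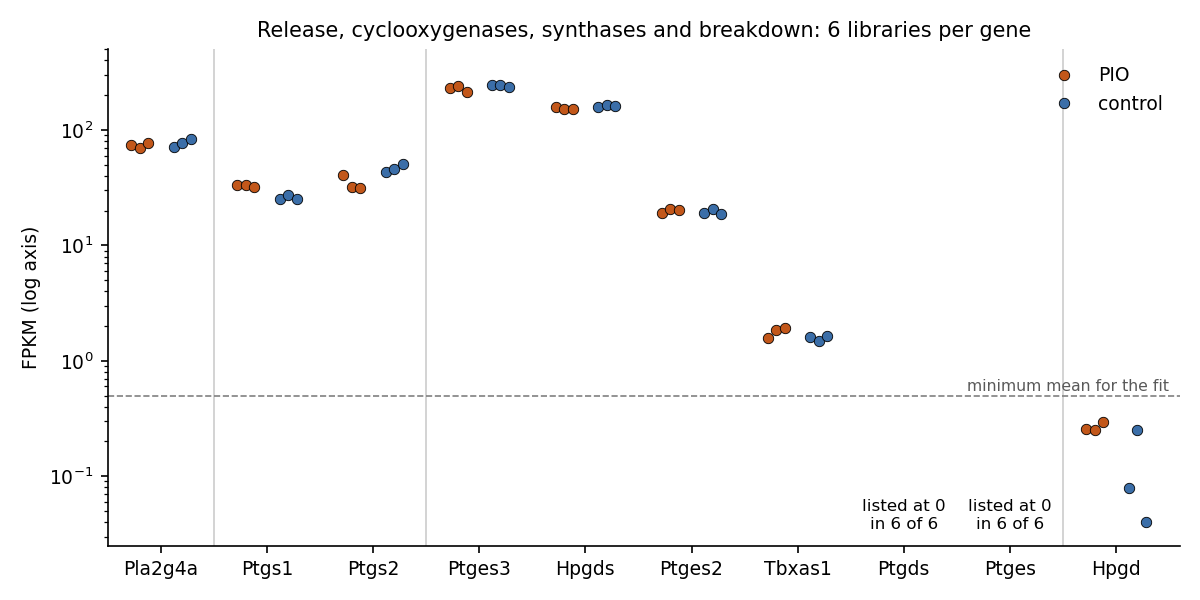
FPKM on a log axis of the 10 genes in the 6 libraries, ordered by step (release, cyclooxygenases, terminal synthases, breakdown), with PIO points left of control points. Ptges3 and Hpgds lie above 150 FPKM in every library, Tbxas1 below 2 FPKM, Hpgd below the dashed minimum of 0.5 FPKM, and Ptgds and Ptges are listed at 0.

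Over the 7 genes that reached the minimum, the fold changes had no common direction. With PIO 3 were higher and 4 lower, and their median log2 fold change was -0.06, beside 0.01 over all genes tested. PIO values were all above control for 1 of them, Ptgs1, where 10.5% of all genes tested have that pattern. They were all below control for 2, Ptgs2 and Hpgds, where 8.09% do. By limma with Benjamini-Hochberg adjustment at 0.05, 4 of 10410 genes passed (0.0384%) and none of the 7 did, while 2 of the 7, Ptgs1 and Ptgs2, had an unadjusted limma p under 0.05 (12.5% of all genes tested). Limma-voom on the recovered reads passed 7 genes (0.0672%), 1 of them Ptgs1. As this comparison chose the genes, these counts are a description of the 7.

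The genes differed in how their libraries varied. Ptgs2 had the widest profile over the 6 libraries, from 0.34 above its own mean in control replicate 3 to 0.34 below it in PIO replicate 3 on the log2 scale. Hpgds had the narrowest, within 0.07 of its mean. Among 7393 genes with an established symbol and at least 5 FPKM, the 5 whose profile over the 6 libraries lay closest to that of Ptgs1 were Alkbh2, Ehd1, Hmox1, Fance and Zdhhc18. Likeness was the root mean square difference of centred log2 values over the 6 libraries, 0.0305 for Alkbh2 to 0.0595 for Zdhhc18, with a median of 0.181 over all genes compared. This choice fixes that they differ between the groups much as Ptgs1 does. By the same measure Ptgs2 was 0.406 from Ptgs1 and ranked 7343 of 7393. The measure includes the difference between groups, so this rank largely restates the opposite fold changes of Ptgs1 and Ptgs2.

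**Figure D3:**
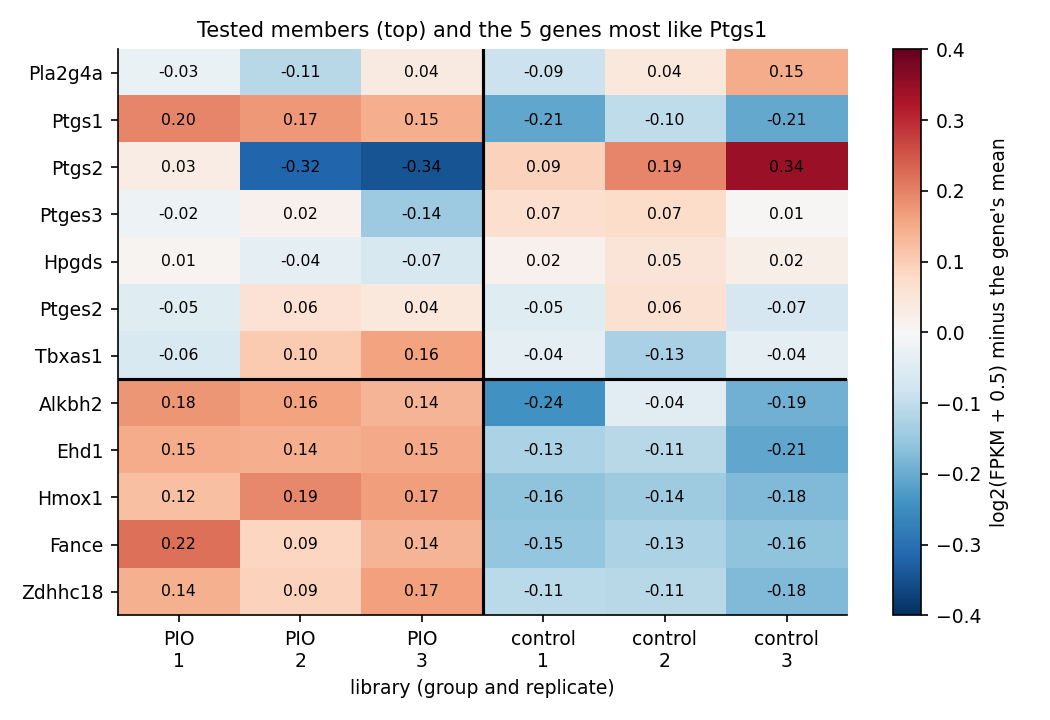
Log2(FPKM + 0.5) minus the gene's own mean over the 6 libraries, for the 7 tested genes (top) and the 5 genes closest to Ptgs1 (bottom), PIO libraries left of control libraries. Ptgs1 is positive in the 3 PIO libraries and negative in the 3 control libraries, and Ptgs2 is at 0.03 in PIO replicate 1, at -0.32 and -0.34 in PIO replicates 2 and 3, and positive in control.

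Other genes of the pathway were looked up in 8 lists by role, 69 symbols in all. Of these, 66 were listed, 45 reached the minimum for the fit and 9 were at 0 in all libraries. None of the 45 passed the limma test (smallest adjusted p = 0.257, Benjamini-Hochberg, beside 0.0384% of all genes tested), and limma-voom passed none. At an unadjusted limma p under 0.05 stood 7 of the 45 (15.6%), 3 higher and 4 lower, near the 12.5% of all genes. Of the 45, 31 were higher with PIO and 14 lower, and the median log2 fold change was 0.04, beside 0.01 over all genes tested. Without control replicate 3 it was 28 higher and 17 lower, with a median of 0.03. PIO and control values did not overlap for 17 of them (37.8%), 11 higher and 6 lower, where 18.5% of all genes tested did not.

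Among 11 tested genes of arachidonate release and reacylation, 9 were higher and 2 lower, the median log2 fold change was 0.06, and none passed. Without control replicate 3, 7 were higher and 4 lower. Acsl4, the acyl-CoA synthetase that prefers arachidonate and returns it to membrane lipids, stood at 83.9, 76.7 and 73.2 FPKM in PIO replicates 1 to 3, against 90.6, 98.4 and 95.3 FPKM in control replicates 1 to 3. Its groups did not overlap, and the log2 fold change was -0.28 (SE 0.06, limma adjusted p = 0.257). Mgll, the monoacylglycerol lipase that can also supply arachidonate, averaged 7.07 ± 0.157 FPKM with PIO and 6.04 ± 0.159 FPKM in control (SD, n = 3 each; log2 fold change 0.21, limma adjusted p = 0.304). The phospholipase genes Pla2g4c, Pla2g1b, Pla2g2d and Pla2g10 and the diacylglycerol lipase gene Dagla were listed at 0.

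On the receiving side of the pathway, 4 of 10 receptor genes reached the minimum, and none of the 4 passed. Ptger4, a prostaglandin E2 receptor gene, averaged 3.12 ± 0.0833 FPKM with PIO and 2.90 ± 0.145 FPKM in control (SD, n = 3 each; log2 fold change 0.09, limma adjusted p = 0.624). Ptgdr2, the prostaglandin D2 receptor CRTH2, was near the minimum at 0.665 ± 0.105 FPKM with PIO and 0.603 ± 0.143 FPKM in control (SD, n = 3 each; limma adjusted p = 0.829). The receptor genes Ptger2, Ptgdr and Ptgfr were listed at 0. The transporter genes Slco2a1 and Abcc4 had at most 1 recovered read in any library. Of 4 tested genes for other prostanoid enzymes none passed, and those with the smallest p were the reductase genes Ptgr2 (6.94 ± 0.336 FPKM with PIO and 7.36 ± 0.465 FPKM in control, SD, n = 3 each) and Ptgr1, at adjusted p = 0.644 and 0.698 by limma. Fam213b, a prostaglandin F synthase gene of the same list, was listed at 0. Akr1b1, an abundant gene of that list, averaged 108 ± 3.6 FPKM with PIO and 105 ± 4.03 FPKM in control (SD, n = 3 each; limma adjusted p = 0.701).

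Known regulators of Ptgs2 transcription and mRNA decay were measured beside it, and none of 9 tested passed. With PIO 6 were lower and 3 higher, and the median log2 fold change was -0.04. Without control replicate 3, 5 were lower and 4 higher. Zfp36l1, which encodes a protein that promotes decay of mRNAs with AU-rich elements, stood at 3.40, 3.67 and 2.93 FPKM in PIO replicates 1 to 3, against 3.97, 4.79 and 6.02 FPKM in control replicates 1 to 3 (log2 fold change -0.49, limma adjusted p = 0.304). Celf2, which encodes a protein that binds and stabilizes Ptgs2 mRNA while limiting its translation, stood at 36.1, 32.7 and 32.7 FPKM in PIO replicates 1 to 3, against 36.9, 40.0 and 41.4 FPKM in control replicates 1 to 3 (log2 fold change -0.22, limma adjusted p = 0.304). For both genes, picked by smallest p, the PIO values lay below the control values, and control replicate 3 was the highest library, as for Ptgs2. In the list of 9, 4 had all PIO values below control, where 8.09% of all genes tested do. Control replicate 3 was also the highest library for other genes of the list. Without control replicate 3 the log2 fold change was -0.35 for Zfp36l1 and -0.18 for Celf2.

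The leukotriene branch, which competes for the same arachidonate, had 4 of 4 tested genes higher and none passed. The median log2 fold change was 0.06, beside 0.01 over all genes tested. All 4 were also higher without control replicate 3, and 3 had all PIO values above control, where 10.5% of all genes tested do. Alox5, the 5-lipoxygenase gene, averaged 587 ± 14.6 FPKM with PIO and 561 ± 3.49 FPKM in control (SD, n = 3 each; log2 fold change 0.06, limma adjusted p = 0.443), above every prostaglandin gene described here. Ltc4s, the leukotriene C4 synthase gene, stood at 1.35, 1.63 and 1.86 FPKM in PIO replicates 1 to 3, against 1.26, 1.00 and 1.13 FPKM in control replicates 1 to 3 (log2 fold change 0.37, limma adjusted p = 0.34). Of 8 genes of the Hsp90 machinery that Ptges3 works with none passed, and they had no steady direction: 7 were higher and 1 lower with all libraries (median log2 fold change 0.04), but 4 were higher and 4 lower without control replicate 3. The smallest p values there were those of the chaperone gene Hsp90ab1 (log2 fold change 0.07, limma adjusted p = 0.425) and the heat shock factor gene Hsf1 (0.08, adjusted p = 0.46).

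**Figure D4:**
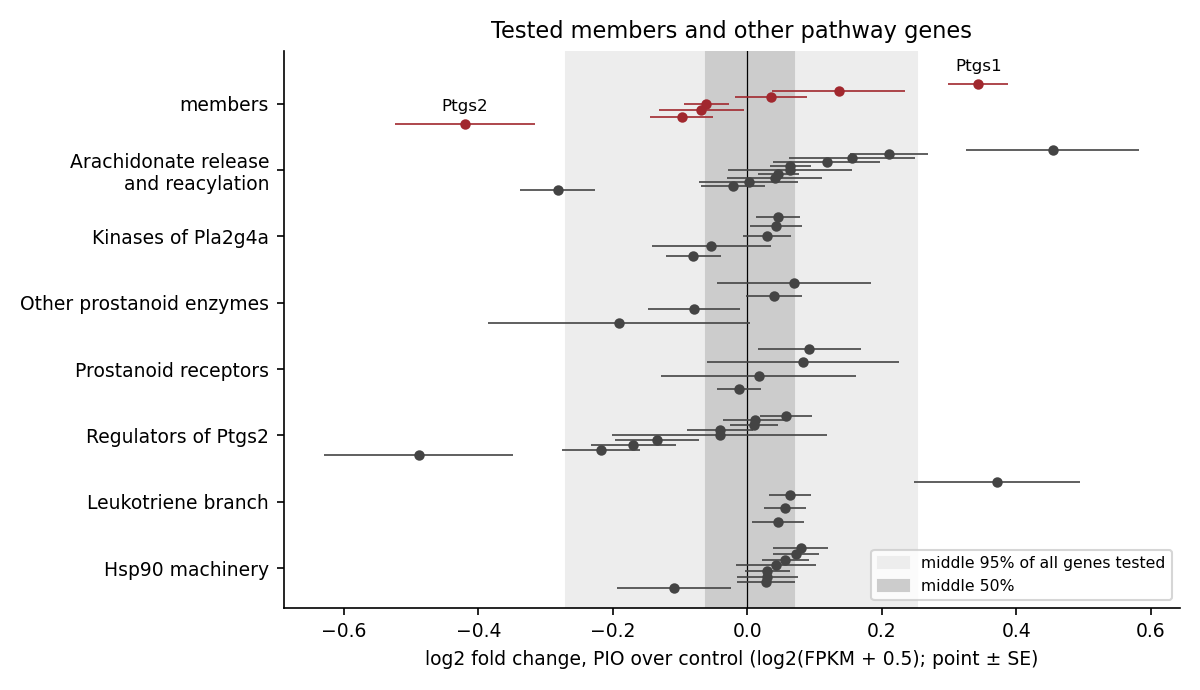
Log2 fold change of PIO over control (point) with its SE (line) for the 7 tested genes and for 45 other pathway genes by role, over grey bands that hold the middle 50% and 95% of all genes tested. Ptgs1, at 0.34, and Ptgs2, at -0.42, lie outside the wider band on opposite sides, and the other 5 tested genes lie inside it.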

How the data were processed

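The authors deposited 1 table of FPKM, with a column per library. Per the submitters' processing notes, HISAT2 2.2.1.0, BWA 0.7.5a, HTSeq, Cufflinks and DESeq were among the tools. Their roles, and whether counting used strand, are not given in the sources used here. The library kit was stranded, per the labels' protocols. The notes name GRCh38, a human build, while the genes are rat genes, so no coordinates of the table are printed. In RefSeq (GRCr8, used for names, neighbours and promoters only) Hpgds, Ptges2, Ptges3 and Tbxas1 overlap other genes, so their values may hold reads of those.

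The 27 symbols that read as dates were replaced by the RefSeq symbol of their GeneID. For 15427 genes, 99.99% of those above 0, the FPKM gave whole reads within 0.001 of a read and a whole length. Genes averaging at least 0.5 FPKM were fitted by limma 3.58.1 (R 4.3.3) on log2(FPKM + 0.5), with a variance trend, two-sided tests and Benjamini-Hochberg adjustment. The code was tested on simulated data. Tables and figures used Python 3.11.15, pandas 2.3.3 and matplotlib 3.10.9.

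The genes, lists and alternatives were chosen with earlier results of these data known. Named are the 10 genes, the 2 smallest p per list, genes listed at 0, low transporters, Akr1b1 and the 5 closest to Ptgs1. The list of kinases is counted but its genes are not reported here. As alternatives the pseudocount was 0.1 or 1, the minimum was removed or set to 1 FPKM, scaling was by median of ratios or to TPM, and the fit had no variance trend, a robust variance or a replicate block, besides limma-voom and leaving out each library.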

Additional observations from a re-analysis of the deposited data

How the results depend on the processing

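The log2 fold changes of the 7 tested genes kept their sign under all 16 alternatives. Removing or raising the minimum, changing the variance model and adding the replicate block cannot change these fold changes, so their sign there was fixed. Ptgs1 lay between 0.33 and 0.38 with a library left out and between 0.32 and 0.35 under the other alternatives, and Ptgs2 between -0.54 and -0.35 and between -0.45 and -0.41. Ptgs1 minus Ptgs2, on the log2 scale, lay between -0.12 and 0.04 with PIO and between -0.88 and -0.75 in control when a library was left out. The number of genes passing limma was 4, against 1 without a filter, 2 without a variance trend, 7 with the robust fit, 7 by limma-voom and 3 to 4 with a library left out. For the other pathway genes it was 0 throughout. Same-numbered libraries did not steadily deviate together (correlations across genes -0.11, 0.085 and 0.15, and only PIO replicate 3 correlated best with its own number). Deviations from a mean of 3 libraries are tied to one another, so this check cannot decide whether replicates were paired. With the replicate number as a block, 3 genes passed. The fold changes stay at 0.34 for Ptgs1 and -0.42 for Ptgs2 by design, since each number occurs once per group. TPM scaling shifted the median of all genes by -0.03. Depth limits Hpgd and, less so, Tbxas1.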
